A study of Homo sapiens with 6 samples.

Results

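The 40 genes described here carry proteins into the endoplasmic reticulum (ER) and fold, glycosylate, inspect and clear them there. They were chosen by name as ER chaperones, sensors of unfolded protein, and subunits of the translocation and glycosylation machinery. Of the 40, 39 were measured among 33616 genes in all, and SEC61G was not analysed here. Each gene was read from its brightest array row that carries a single gene symbol.

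The cells were MHH-cALL4, a human leukaemia line of the B-cell precursor lineage with a Philadelphia chromosome-like expression profile, known for rearranged CRLF2, a cytokine receptor gene, and for active JAK signalling. One group of 3 arrays came from cells given 1 µM ruxolitinib, an inhibitor of JAK1 and JAK2, for 12 h, and the other group of 3 from cells given the DMSO vehicle for 12 h. Both groups are a single established line grown in RPMI with serum, penicillin and streptomycin, so the comparison holds for this line only. The titles and source names of the ruxolitinib arrays say MHH-cALL5, whereas their cell line field and protocols give MHH-cALL4, which was followed. The question of the comparison was which transcripts differ after JAK inhibition.

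A protein bound for the cell surface or for secretion is recognised by the signal recognition particle (SRP) while it is being made, docks at the SRP receptor and passes through the SEC61 channel. Signal peptidase then removes its leader and the oligosaccharyltransferase adds sugar chains. Chaperones such as BiP and calreticulin fold the chain, disulphide isomerases form its bonds, and failed products are sent back to the cytosol for degradation. When unfolded protein accumulates, the sensors IRE1, PERK and ATF6 start the unfolded protein response, which raises transcription of chaperone genes. In B-lineage cells this machinery is known for its large expansion at the plasma cell stage, through the transcription factor XBP1.

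The values are log2 signals, and the median over all genes lay between 5.21 and 5.31 on the ruxolitinib arrays and between 5.20 and 5.31 on the DMSO arrays. Of the B-cell precursor markers, 10 of 12 were measured, with means of 11.75 to 19.55, and their average lay at 15.51 to 16.03 on ruxolitinib arrays and at 15.41 to 15.82 on DMSO arrays. T-cell, myeloid and erythroid markers averaged 4.29 to 4.94 on ruxolitinib arrays and 4.11 to 4.98 on DMSO arrays, near the bottom of the scale. Of the 5 plasma cell markers, SDC1, TNFRSF17 and PRDM1 had means of 4.87, 4.54 and 5.72, whereas IRF4 and JCHAIN were bright, with means of 12.10 and 17.02. The summed level of these 5 was 42.4 to 44.7 on ruxolitinib arrays and 44.7 to 45.8 on DMSO arrays. Ruxolitinib replicate 3 and DMSO replicate 1 had the strongest small RNA signal (rRNA, snRNA and snoRNA, mean 8.45 and 8.48, against 7.94 and 8.09 on the other ruxolitinib arrays and 8.08 and 8.17 on the other DMSO arrays). The count of lower members is also given without both arrays, and some changes are given without 1 of them.

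The members past the threshold were folding factors, all lower in ruxolitinib-treated cells. HSPA5, HSP90B1, CALR, MANF, DNAJB11 and PDIA4 were 2.02-fold to 3.61-fold lower than in DMSO. With an adjusted p under 0.05 (limma, Benjamini-Hochberg over 33616 genes), 6 of the 39 members fell, none rose and the other 33 missed the threshold. Over all genes 1.04% were called lower and 0.101% higher, and over protein-coding genes 1.85% and 0.167%. All 6 were among the 15 folding members (chaperones and isomerases), whereas 0 of the 16 measured members for entry and glycosylation passed (limma, 5 of these 16 were lower, and 0 higher, with p under 0.05 before adjustment). The difference between these groups was not tested.

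The median log2 change of the members (ruxolitinib minus DMSO) was -0.48, beside -0.02 for all genes, -0.06 for protein-coding genes and -0.07 for genes brighter than the median gene. Of the 39, 32 had a change below 0. So did 17944 of all 33616 genes, 10371 of 17340 protein-coding genes and 10120 of 16808 genes brighter than the median gene. On every ruxolitinib array 17 members lay below every DMSO array, against a background of 9.03% of all genes and 13.3% of protein-coding genes. In the opposite direction 1 member did so, EIF2AK3, against 5.14% of all genes and 4.48% of protein-coding genes. Before adjustment 19 members were lower with p under 0.05 and 1 was higher. The background for this was 6.85% lower and 2.68% higher over all genes, and 10.7% and 2.79% over protein-coding genes. Because RNA came from whole cultures, a smaller share of cells of a kind and less RNA per cell cannot be told apart.

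**Figure D1:**
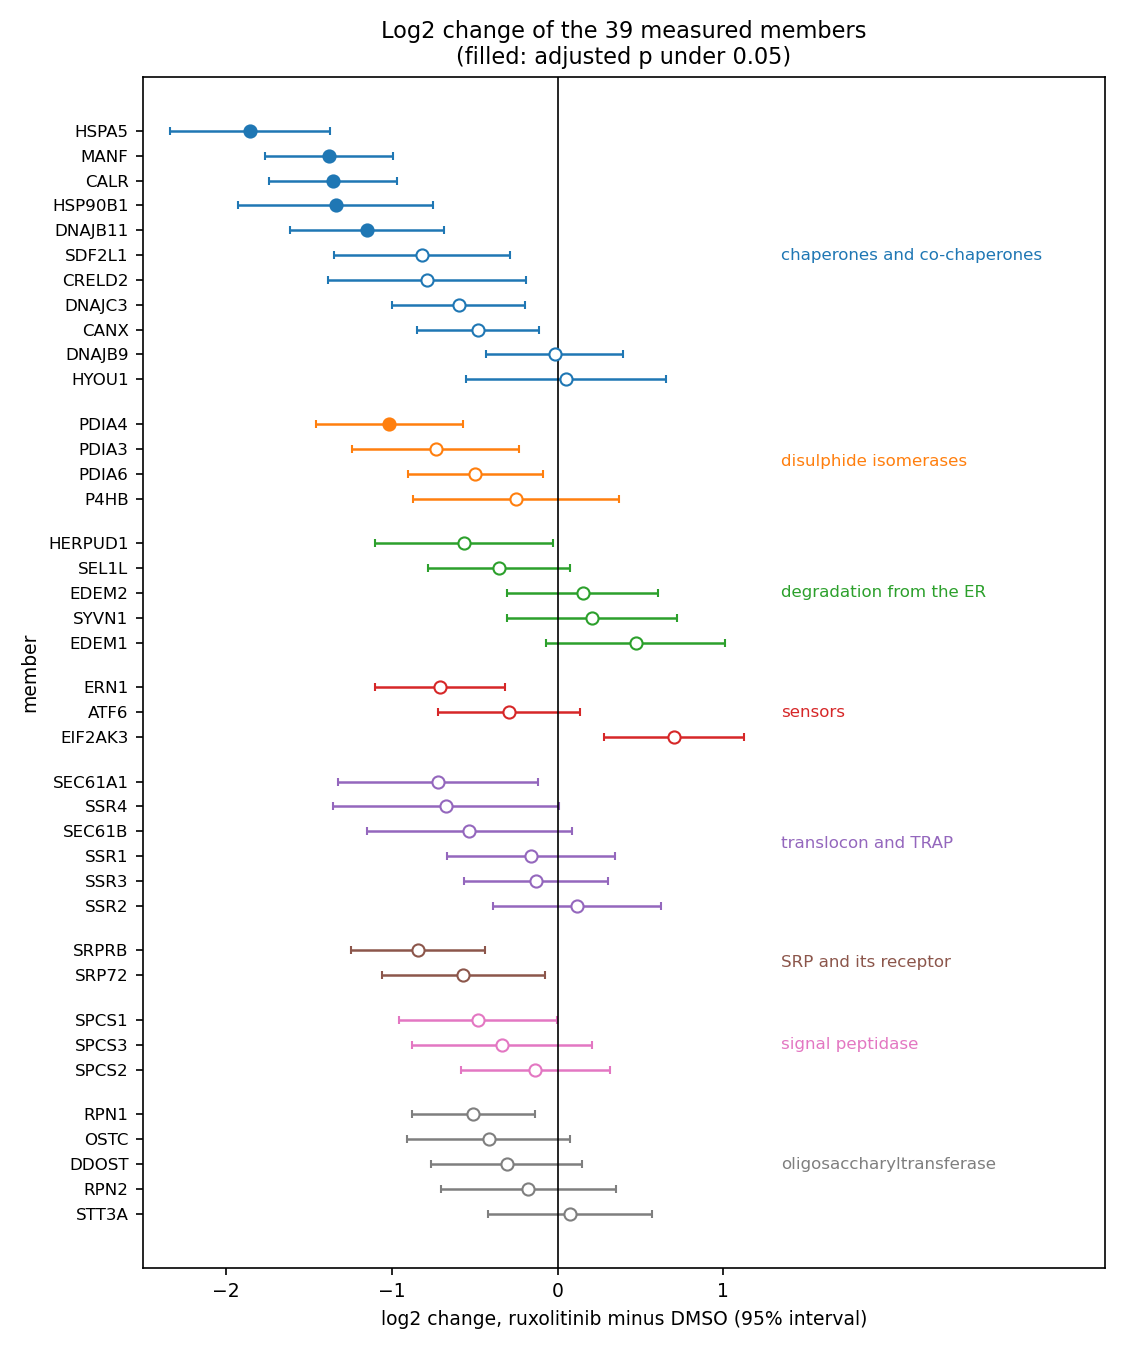
Log2 change (ruxolitinib minus DMSO) of each measured member with its 95% interval from limma, grouped and coloured by role, with filled points for an adjusted p under 0.05. The 6 filled points are 5 chaperones or co-chaperones and 1 disulphide isomerase, at -1.85 to -1.02, and the rest span -0.84 to 0.70.

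HSPA5 encodes BiP, the ER member of the HSP70 family, which binds nascent chains and holds the 3 sensors inactive. Its log2 signal was 12.76, 12.32 and 12.40 on the ruxolitinib arrays, against 13.93, 14.53 and 14.58 on the DMSO arrays. The groups did not overlap, and the lowest DMSO value was that of replicate 1. HSPA5 fell by 1.85 ± 0.22 on the log2 scale (SE), a 3.61-fold difference (95% interval 2.59 to 5.05, adjusted p = 0.00197, limma).

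CALR encodes calreticulin, a lectin chaperone that holds newly glycosylated proteins. It gave 15.69, 15.35 and 15.63 on the ruxolitinib arrays and 16.85, 16.90 and 16.98 on the DMSO arrays. The DMSO arrays had an SD of 0.07 and were all above the ruxolitinib arrays. The change was -1.35 ± 0.18 (2.56-fold lower, adjusted p = 0.00346, limma). CANX, its membrane-bound relative calnexin, gave 16.09, 16.26 and 16.13 against 16.71, 16.64 and 16.58 in DMSO. These groups did not overlap either, but its change of -0.48 ± 0.17 did not pass (adjusted p = 0.311, limma).

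MANF encodes a small secreted ER protein that binds BiP. Its signal was 8.10, 8.0 and 7.78 with ruxolitinib, against 9.26, 9.47 and 9.27 in DMSO. All 3 ruxolitinib arrays were lower, by 1.38 ± 0.18 on average (adjusted p = 0.00326, limma). HSPA5, CALR and MANF kept their call in all 6 fits that leave out 1 array each, with adjusted p up to 0.0334, and lost it, among 19 alternative fits, only without moderation of the spread (adjusted p = 0.237, 0.164 and 0.169).

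HSP90B1 encodes the ER form of HSP90. The row used for it was dim, with 6.06, 6.47 and 6.57 on ruxolitinib arrays and 7.05, 8.05 and 8.01 on DMSO arrays. DMSO replicate 1 lay between the ruxolitinib arrays and the other DMSO arrays. The row gave -1.34 ± 0.27 (adjusted p = 0.0399, limma). A much brighter row, annotated with HSP90B1 and the microRNA gene MIR3652, gave 14.42, 13.86 and 13.63 with ruxolitinib and 14.51, 15.28 and 15.60 in DMSO. With this row in its place the change was -1.16 ± 0.29 and did not pass (adjusted p = 0.104, limma). The dim row was not matched to a RefSeq gene, so it is missing from the alternative fit on protein-coding genes alone. Over 19 alternatives, with the brighter row among them, the adjusted p of HSP90B1 ran from 0.00363 to 0.484 (limma).

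The co-chaperones of BiP differed among themselves. DNAJB11, which delivers unfolded chains to BiP, had 10.96, 10.55 and 10.91 with ruxolitinib and 11.58, 12.16 and 12.13 in DMSO. It fell by 1.15 ± 0.21 on the log2 scale (adjusted p = 0.026, limma), although a second row annotated with the same gene showed 0.18 ± 0.20. DNAJC3, another J-domain partner of BiP, gave -0.60 ± 0.18, with 10.46, 10.52 and 10.41 below the DMSO values of 10.79, 11.22 and 11.17. DNAJB9, a J-domain protein that serves degradation, gave 8.49, 8.56 and 9.0 against 8.69, 8.67 and 8.74 in DMSO, so its groups overlapped. Its change was -0.02, with a 95% interval of -0.43 to 0.40.

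SDF2L1, a partner of DNAJB11 and BiP, had 4.80, 4.52 and 5.03 with ruxolitinib and 5.27, 5.42 and 6.12 in DMSO. Its row was dim, with a mean of 5.19 against 5.25 for the median gene. CRELD2, a secreted ER stress protein, had 7.15, 6.97 and 6.73 against 7.18, 7.67 and 8.37. In both genes the groups did not overlap, although the nearest CRELD2 arrays were almost level, and DMSO replicate 3 stood highest. Their changes of -0.82 ± 0.24 and -0.79 ± 0.27 did not pass (adjusted p = 0.193 and 0.305, limma).

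**Figure D2:**
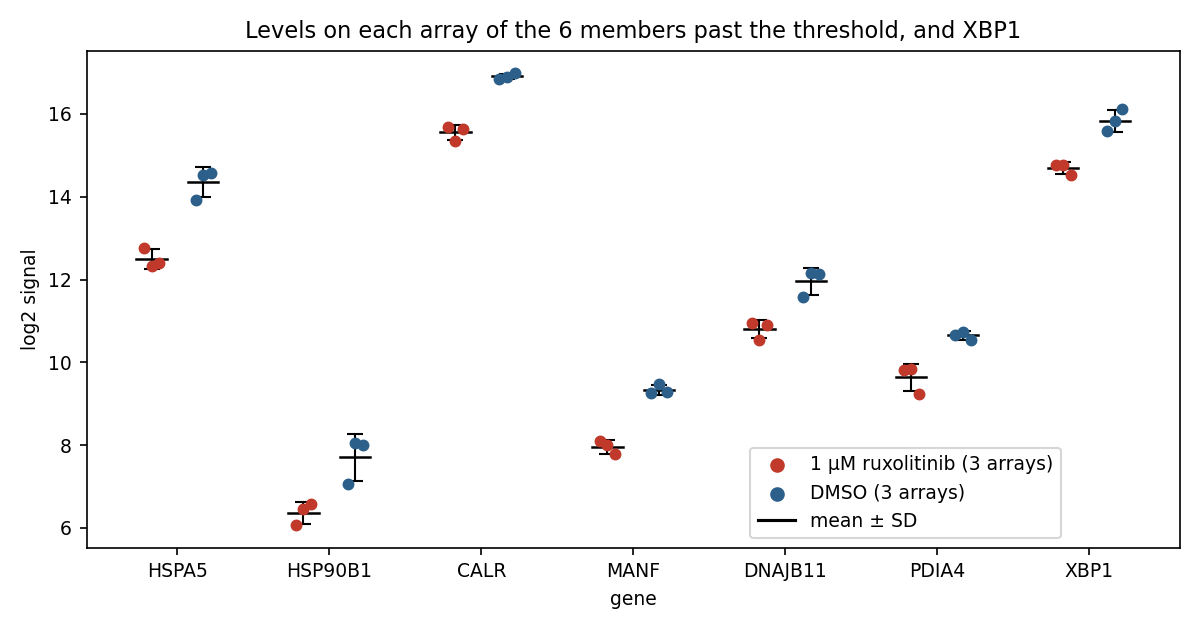
Log2 signal on each of 3 ruxolitinib (left, red) and 3 DMSO (right, blue) arrays for the 6 members past the threshold and for XBP1, with mean ± SD in black. In each of the 7 genes every ruxolitinib array lies below every DMSO array.

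HYOU1 encodes the large ER HSP70 relative that exchanges nucleotide on BiP, and its result depended on the row read. The platform gives 23 rows for HYOU1, of which 22 have identifiers without a chromosome. The brightest of all, used by the rule, is 1 of those 22 and gave 11.80, 13.00 and 12.65 with ruxolitinib, against 12.29, 12.64 and 12.37 in DMSO. These values overlapped, with a change of 0.05 ± 0.27. The row whose identifier carries chromosome 11, where RefSeq places HYOU1, had 11.76, 11.79 and 11.39 against 12.70, 12.87 and 13.06 in DMSO. That row was lower on all ruxolitinib arrays, with a change of -1.23 ± 0.19 and an adjusted p of 0.00948 when it replaced the brightest row (limma, a choice made after its values were seen).

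Most other HYOU1 rows had a change of the same sign as the chromosome row. Of the 22 rows without a chromosome, 21 had a change below 0, with a median of -0.81 and a range of -1.48 to 0.05. In 15 of them every ruxolitinib array was below every DMSO array, and 4 passed as lower in a fit over 37295 rows (limma, 0.989% of those rows were called). These rows share a gene name and RNA samples and are not independent measurements. With the mean of all rows of a gene, HYOU1 had -0.73 and an adjusted p of 0.12. With the chromosome rows for HYOU1 and SPCS2 and the bright row for HSP90B1, the count of members called was again 6, with HYOU1 in and HSP90B1 out, and the median was -0.50.

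**Figure D3:**
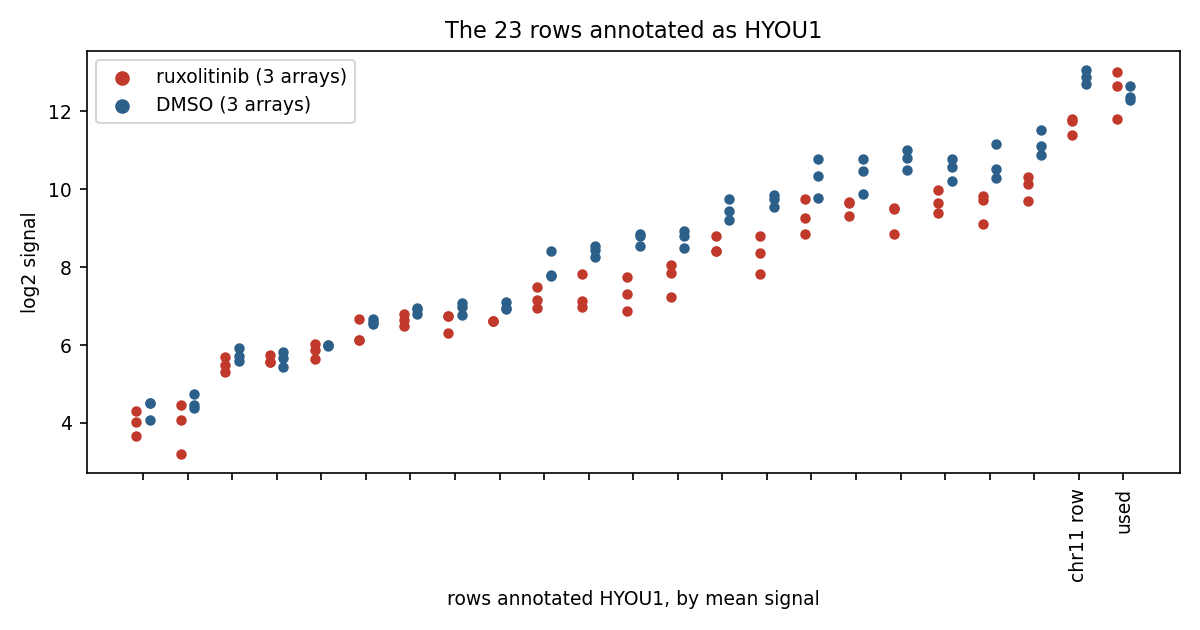
Log2 signal on 3 ruxolitinib (red) and 3 DMSO (blue) arrays for the 23 rows annotated HYOU1, ordered by mean signal. The row used sits at the far right with mixed colours, and the chromosome 11 row beside it and most mid-level rows have the ruxolitinib points lower.

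Disulphide isomerases make and rearrange the bonds between cysteines. PDIA4 gave 9.82, 9.83 and 9.25 on ruxolitinib arrays and 10.67, 10.74 and 10.54 on DMSO arrays, without overlap. It fell by 1.02 ± 0.20 on the log2 scale (adjusted p = 0.0386, limma), and in none of the 6 fits with 1 array removed did it pass (adjusted p 0.0639 to 0.185). PDIA3, the partner of calreticulin and calnexin, had 14.45, 14.19 and 14.07 against 14.56, 14.93 and 15.42, a change of -0.74 ± 0.23. PDIA6 had 15.84, 16.09 and 16.22 against 16.35, 16.61 and 16.68, a change of -0.50 ± 0.19. Neither passed (adjusted p = 0.231 and 0.366, limma), though the groups did not overlap in either. P4HB, the archetypal protein disulphide isomerase, overlapped between the groups, with 14.22, 14.03 and 13.49 against 13.62, 14.13 and 14.74 and a change of -0.25 (95% interval -0.87 to 0.37).

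The count of lower members was smaller in each fit with 1 array left out, and each such fit also has fewer arrays. Over all genes the lower count ran from 98 to 280 in these fits, against 350 with all 6 arrays. The median change of the members stayed between -0.53 and -0.32. The member count was 3 without ruxolitinib replicate 1, ruxolitinib replicate 2, DMSO replicate 2 or DMSO replicate 3. It was 4 without ruxolitinib replicate 3 and 5 without DMSO replicate 1. DNAJB11 kept its call in 2 of these 6 fits, without DMSO replicate 1 or ruxolitinib replicate 3, and HSP90B1 in 1, without DMSO replicate 1. Without both arrays of strong small RNA signal the count was 5, with PDIA4 lost, and with that signal as a covariate it was 7, with SRPRB added.

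Promoter sequence is shown for members that hold the ER stress response element (ERSE), which ATF6 and XBP1 are known to bind together with NF-Y. The promoter windows run from 250 bases before to 50 bases after an annotated gene start (RefSeq, GRCh38.p14). They matched 37 of the 40 members in 46 windows, leaving out PDIA3, RPN1 and SPCS1. Capitals mark the fixed letters of a match, and positions count from 0 at the first base of the gene. HSPA5 (chr9:125241294-125241593, minus strand) has an ERSE at positions -66 to -48, HSP90B1 (chr12:103930160-103930459, plus strand) has 2, at -194 to -176 and, on the other strand, at -89 to -71, and CALR (chr19:12938359-12938658, plus strand) has 1 on the other strand at -225 to -207.
HSPA5: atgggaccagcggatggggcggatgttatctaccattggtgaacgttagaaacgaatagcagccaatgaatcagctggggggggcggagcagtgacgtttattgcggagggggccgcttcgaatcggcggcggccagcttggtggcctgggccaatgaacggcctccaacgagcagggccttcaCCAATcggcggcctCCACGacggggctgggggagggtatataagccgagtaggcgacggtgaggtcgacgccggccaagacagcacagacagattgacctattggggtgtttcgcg
HSP90B1: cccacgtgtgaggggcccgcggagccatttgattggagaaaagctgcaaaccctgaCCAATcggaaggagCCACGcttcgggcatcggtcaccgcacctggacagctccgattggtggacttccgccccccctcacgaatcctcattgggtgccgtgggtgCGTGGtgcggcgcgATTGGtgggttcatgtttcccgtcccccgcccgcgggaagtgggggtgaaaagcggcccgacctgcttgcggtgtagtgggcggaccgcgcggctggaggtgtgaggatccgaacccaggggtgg
CALR: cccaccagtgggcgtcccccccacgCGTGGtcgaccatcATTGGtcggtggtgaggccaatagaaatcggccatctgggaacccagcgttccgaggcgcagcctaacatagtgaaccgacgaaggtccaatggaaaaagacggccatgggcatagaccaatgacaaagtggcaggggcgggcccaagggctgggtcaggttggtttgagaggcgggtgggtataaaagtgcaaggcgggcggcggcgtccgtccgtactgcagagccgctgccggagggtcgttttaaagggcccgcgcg

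The exact ERSE, CCAAT and CCACG with 9 bases of any kind between them, searched on both strands, was found in 6 of the 37 members, in HSPA5, HSP90B1, CALR, CANX, CRELD2 and PDIA6. Over all genes with a window, 25 of 27305 (0.0916%) held it, in 27 of 35116 windows (0.0769%). The related ERSE-II, ATTGG and CCACG with 1 base of any kind between them, on both strands, was found in HERPUD1, SDF2L1 and HYOU1, and in 19 of all genes (0.0696%) and 19 of all windows (0.0541%). Members were chosen by name as ER genes, and the elements are known from the ER stress response. These shares are therefore a description and not a test. The short forms below allow the elements of the members not shown in full to be compared.
CANX ERSE (chr5:179698773-179698801, plus strand): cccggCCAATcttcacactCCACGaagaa
CRELD2 ERSE, other strand (chr22:49918549-49918577, plus strand): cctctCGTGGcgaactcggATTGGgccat
PDIA6 ERSE (chr2:10812848-10812876, minus strand): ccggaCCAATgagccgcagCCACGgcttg
HERPUD1 ERSE-II (chr16:56932020-56932040, plus strand): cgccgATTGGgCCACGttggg
SDF2L1 ERSE-II, other strand (chr22:21642109-21642129, plus strand): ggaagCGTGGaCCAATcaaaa
HYOU1 ERSE-II, other strand (chr11:119057375-119057395, minus strand): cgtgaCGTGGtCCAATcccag
HYOU1 ERSE-II, other strand (chr11:119057269-119057289, minus strand): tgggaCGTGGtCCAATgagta

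Among the 9 members with either element, 3 were called lower and 8 had every ruxolitinib array below every DMSO array, HYOU1 being the exception with the row used. Their median log2 change was -0.79. Among the 27 measured members with a window and neither element, 3 were called lower (MANF, DNAJB11 and PDIA4), 7 had non-overlapping lower ruxolitinib arrays, and the median was -0.31. All of the 9 except HERPUD1 are folding members, and the median of the 15 folding members was also -0.79. The 3 called members with neither element are folding members too. Whether element or role goes with the size of the change was not tested. Over all genes 1.04% were called lower and 9.03% had every ruxolitinib array below every DMSO array. Over protein-coding genes these shares were 1.85% and 13.3%. These are descriptions of small groups, without a test. The E-box CACGTG, a palindrome bound by MYC among others, was in 7 of 37 members (18.9%), against 8.77% of all genes and 7.26% of all windows. The STAT-type motif TTCNNNGAA, also a palindrome, was in 4 members (DDOST, EDEM2, SEC61G and SPCS3, 10.8%), against 9.38% of all genes and 7.66% of all windows. The short element TGACGTGG on both strands was in 3 members (HYOU1, SSR3 and SSR4, 8.11%), against 0.927% of all genes and 0.729% of all windows. In 1 member window a match of this element or of the E-box overlapped an ERSE or ERSE-II.

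Of the 3 sensors of unfolded protein 0 passed (limma, before adjustment 1 was lower and 1 higher with p under 0.05). ERN1, which encodes the kinase and nuclease IRE1 that splices XBP1 mRNA, gave 6.89, 6.56 and 6.48 with ruxolitinib and 7.40, 7.36 and 7.30 in DMSO. EIF2AK3, which encodes PERK, the kinase that slows translation, gave 13.27, 13.52 and 13.12 against 12.64, 12.79 and 12.37. In ERN1 all ruxolitinib arrays were the lower ones, and in EIF2AK3 all were the higher ones. The changes were -0.71 ± 0.18 for ERN1 (adjusted p = 0.11, limma, 0.0539 to 0.393 over 19 alternatives) and 0.70 ± 0.19 for EIF2AK3 (adjusted p = 0.147, 0.0699 to 0.503). ATF6, the sensor that is cut to release a transcription factor, overlapped, with 11.18, 11.22 and 11.18 against 11.59, 11.73 and 11.13 and a change of -0.29 ± 0.20.

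**Figure D4:**
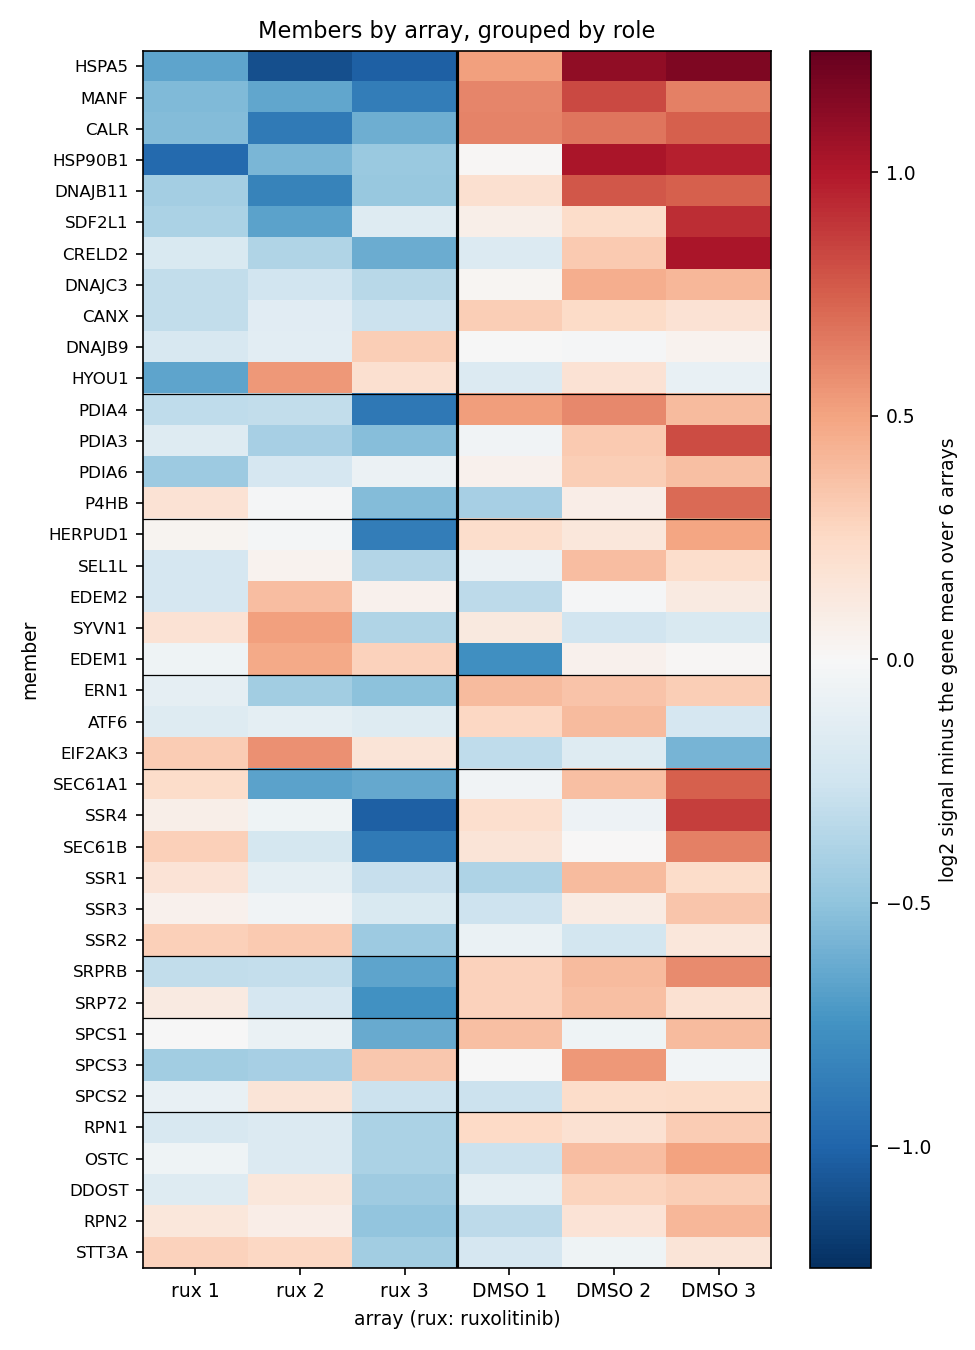
Log2 signal of each member on each array minus the mean of that gene over the 6 arrays, with ruxolitinib arrays at the left, DMSO arrays at the right and lines between roles. Of the 11 chaperone rows 9 have all ruxolitinib arrays lower than all DMSO arrays, the exceptions being HYOU1 and DNAJB9, whereas the rows for degradation and for the SEC61 and TRAP subunits are mixed, and DMSO replicate 1 is paler than the other DMSO arrays.

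Of the 5 members of ER-associated degradation 0 passed (limma, before adjustment 1 was lower and 0 higher with p under 0.05), 2 had changes below 0 and 3 above 0, with a median of 0.15. HERPUD1, which links the ligase complex to the proteasome, had 10.70, 10.64 and 9.81 with ruxolitinib and 10.89, 10.81 and 11.16 in DMSO, a change of -0.57 ± 0.24. Its groups did not overlap, and ruxolitinib replicate 3 was far below the other arrays (change -0.28 without it). SEL1L, the scaffold of the ligase, had -0.35 and SYVN1, the ligase HRD1 itself, 0.21, each overlapping between groups. EDEM1 and EDEM2, lectins that mark misfolded glycoproteins, had 0.47 ± 0.25 and 0.15 ± 0.21. EDEM1 was lowest on DMSO replicate 1 (12.91, against 13.73 and 13.69 on the other DMSO arrays and 13.63, 14.15 and 13.96 with ruxolitinib). Without that array its change was 0.20.

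For entry into the ER, SRPRB, the membrane subunit of the SRP receptor, came closest to the threshold. It gave 10.12, 10.14 and 9.78 on ruxolitinib arrays and 10.72, 10.83 and 11.02 on DMSO arrays, without overlap. Its change of -0.84 ± 0.18 had an adjusted p of 0.0587 (limma, 0.0239 to 0.307 over 19 alternatives, of which 3 called it). SRP72, a protein of the particle, gave 14.97, 14.66 and 14.11 against 15.15, 15.24 and 15.06, a change of -0.57 ± 0.22 that did not pass. The ruxolitinib arrays of SRP72 spread more (SD 0.44) than its DMSO arrays (SD 0.09). Its change was -0.33 without ruxolitinib replicate 3.

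SEC61A1 and SEC61B, subunits of the translocation channel, had 10.62, 9.72 and 9.75 against 10.35, 10.76 and 11.13, and 8.65, 8.14 and 7.48 against 8.52, 8.36 and 8.98. Both overlapped between the groups because ruxolitinib replicate 1 stood among the DMSO arrays. The changes were -0.72 ± 0.27 and -0.53 ± 0.28. The TRAP subunits, which assist the channel, had changes of -0.16 (SSR1), 0.12 (SSR2), -0.13 (SSR3) and -0.67 (SSR4), with intervals that all include 0. SSR4 was the most variable of these, with an SD of 0.60 with ruxolitinib and 0.48 in DMSO.

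Signal peptidase subunits gave -0.48 ± 0.22 (SPCS1), -0.13 ± 0.20 (SPCS2) and -0.34 ± 0.25 (SPCS3), and 0 of 3 passed (limma, before adjustment 1 was lower and 0 higher with p under 0.05). The brightest SPCS2 row carries chromosome 1 in its identifier, whereas RefSeq places the gene on chromosome 11. Over 25025 rows for which both are known, 99.9% name the same chromosome. The SPCS2 row with chromosome 11 gave -0.34 ± 0.21. It too did not pass.

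The oligosaccharyltransferase joins sugar chains to asparagine, and 0 of its 5 measured members passed (limma, before adjustment 1 was lower and 0 higher with p under 0.05). RPN1, a subunit near the channel, gave 15.85, 15.88 and 15.66 with ruxolitinib and 16.30, 16.24 and 16.37 in DMSO. It was the only 1 of the 5 without overlap, with a change of -0.51 ± 0.17 (adjusted p = 0.279, limma). STT3A, the catalytic subunit that works with the channel, gave 17.89, 17.85 and 17.16 against 17.38, 17.54 and 17.75, a change of 0.08 (95% interval -0.42 to 0.57). DDOST (-0.31), RPN2 (-0.18) and OSTC (-0.42) had intervals that include 0.

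Of 150 listed companion genes 137 were measured, of which 4 fell and 0 rose, with a median log2 change of -0.16. The background was 1.04% lower and 0.101% higher over all genes, and 1.85% and 0.167% over protein-coding genes. Before adjustment 25 companions were lower with p under 0.05 and 5 higher (limma). The background for this was 6.85% lower and 2.68% higher over all genes, and 10.7% and 2.79% over protein-coding genes. Of the 137, 27 had every ruxolitinib array below every DMSO array, and 6 had every one above. Over all genes these shares were 9.03% and 5.14%, and over protein-coding genes 13.3% and 4.48%. XBP1, the transcription factor that drives expansion of the secretory pathway, gave 14.77, 14.78 and 14.52 on ruxolitinib arrays and 15.58, 15.82 and 16.11 on DMSO arrays. It was lower on all 3 and fell by 1.15 ± 0.19 on the log2 scale (adjusted p = 0.0157, limma). Spliced and unspliced XBP1 were not told apart here. CREB3L2, a membrane-bound transcription factor related to ATF6, fell by 0.97 ± 0.18 (5.94 ± 0.13 with ruxolitinib and 6.90 ± 0.15 in DMSO, SD, n = 3 each, adjusted p = 0.0251, limma).

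PRDX4, the ER peroxiredoxin, fell by 1.27 ± 0.18 (8.91 ± 0.15 with ruxolitinib and 10.17 ± 0.21 in DMSO, adjusted p = 0.00774, limma). UBE2G2, a ubiquitin-conjugating enzyme of ER-associated degradation, fell by 1.05 ± 0.21 (9.78 ± 0.19 with ruxolitinib and 10.83 ± 0.34 in DMSO, adjusted p = 0.0386). By group, 1 of 21 folding and oxidation genes, 1 of 19 degradation genes and 2 of 13 response regulators were lower. Among 29 genes of glycan synthesis, transfer and trimming, 25 of targeting and translocation and 30 of ER exit and retrieval, 0 passed in either direction (limma, with p under 0.05 before adjustment 2, 6 and 6 were lower and 2, 1 and 0 higher). ATF4 (-0.22 ± 0.22) and DDIT3 (-0.38 ± 0.24), the transcription factors downstream of PERK, did not pass and overlapped between the groups. The companion count was 0 without ruxolitinib replicate 2 or DMSO replicate 2, and 1 without ruxolitinib replicate 3 or DMSO replicate 3. It was 4 without ruxolitinib replicate 1 or DMSO replicate 1, but CREB3L2 and UBE2G2 lost their call without ruxolitinib replicate 1. With 1 array left out, PRDX4 kept its call in 4 of 6 fits, XBP1 in 2, and CREB3L2 and UBE2G2 in 1 each.

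**Figure D5:**
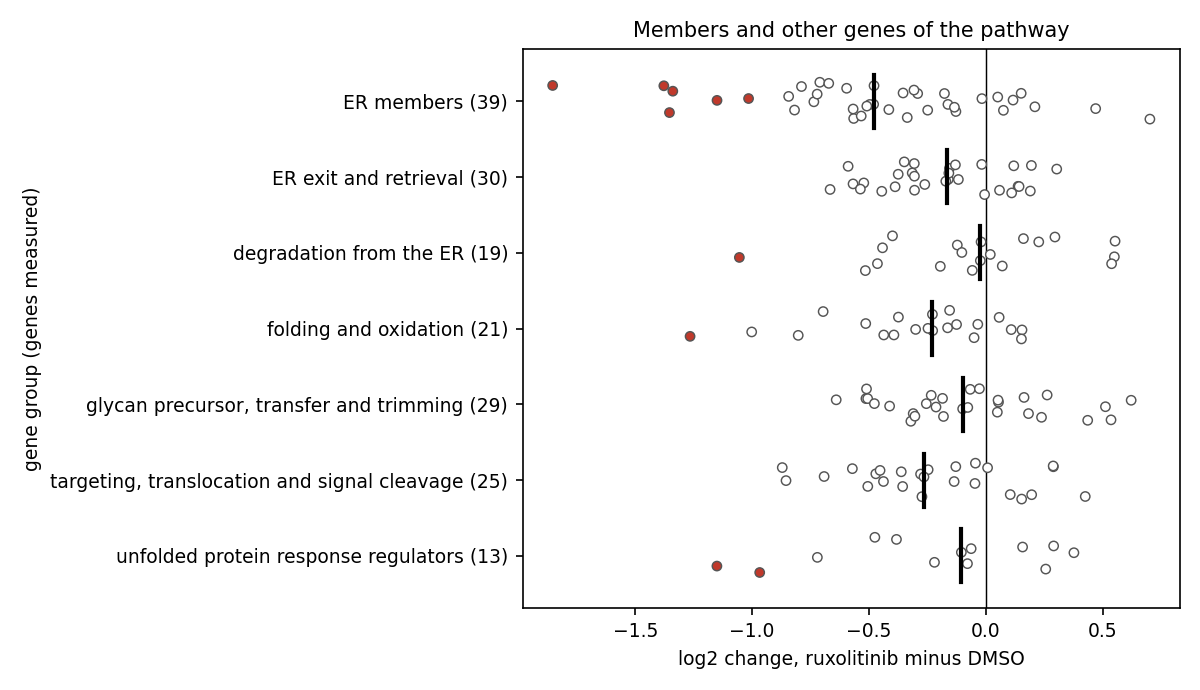
Log2 change (ruxolitinib minus DMSO) of the 39 members and of 137 companion genes by group, with red points for an adjusted p under 0.05 and a bar at each median. The member median is -0.48 and the group medians of companions lie between -0.26 and -0.02.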

How the data were processed

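RNA of MHH-cALL4 cells was labelled as biotinylated cRNA and measured on 6 Affymetrix arrays. The submitters' processing notes name RMA, Expression Console and Transcriptome Analysis Console. The deposited values are log2 signals with a range of 1.99 to 19.9, from which the unit was read, per array row. The build is not given in the sources used here, and detection calls were not used, so dim levels may be background and their folds too small. Array number limits the precision. Of 135750 rows, 36176 have 1 gene symbol, 1119 several and 98455 none. Symbols were updated by Entrez ID with RefSeq (25516 rows), and the row with the highest mean stood for each of 33616 genes.

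Groups were compared with limma 3.58.1 in R 4.3.3 (lmFit, eBayes, no covariates, two-sided), with Benjamini-Hochberg adjustment over all genes. The SE had a median of 0.200. The fit was tested on simulated data with 200 changed genes in each run. It recovered 0.4% of log2 changes of 0.5, 27.2% of 1, 66% of 1.5 and 89% of 2, in either direction. Of its calls 3.59% were false. A gene that did not pass may therefore still have changed, also by more than 1. Members and lists were chosen with earlier results of these data known. Named were all members, up to 3 called companions per group with the smallest adjusted p, and XBP1, ATF4 and DDIT3. Labels do not say whether replicates were separate cultures, so p-values measure the spread between these samples, which may be technical. Replicate numbers are not known to pair arrays. Deviations of same-numbered arrays correlated at -0.21, -0.08 and -0.40, which with so few arrays cannot exclude pairing. Alternatives covered spread model, filters, rows, scaling, weights, covariate, threshold, replicate block and left-out arrays. Promoter windows came from RefSeq GRCh38.p14. Figures used matplotlib 3.10.9.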

Additional observations from a re-analysis of the deposited data

How the results depend on the processing

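With the array count fixed at 3 per group, the median SE of 0.200 limits small changes, and dim rows have only an uncertain level. Under every alternative run the count of higher members and of higher companion genes stayed at 0, and the median change of the members lay between -0.53 and -0.32 (-0.53 to -0.32 with 1 array left out). The count of lower members was 0 without moderation of the spread (12 lower and 1 higher with p under 0.05 before adjustment), 3 to 5 with 1 array left out, and 4 to 7 in the other fits. The count of lower companion genes was 0 without moderation (17 lower and 4 higher before adjustment), 0 with the replicate block and 0 to 4 with 1 array left out. Over all genes 350 were lower and 34 higher. These counts were 1 and 1 without moderation, 532 and 63 in a separate fit and adjustment on protein-coding genes alone (320 and 29 of these genes were called in the fit over all genes), 220 and 56 after quantile normalization, 116 and 6 with the replicate block, and 530 and 63 at an adjusted p under 0.1. The lower count was 534 with small RNA signal as a covariate, and the higher count was 59 under cyclic loess. With 1 array left out they ran from 98 to 280 and from 3 to 28. With the replicate block DNAJB11 (adjusted p = 0.108), PDIA4 (0.102), XBP1 (0.0894), PRDX4 (0.0566), CREB3L2 (0.129) and UBE2G2 (0.156) lost their call and 4 members were lower. No ruxolitinib array correlated best with the DMSO array of its number (0 of 3).

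Small changes that did not pass turned sign in 22 cases, none of them called except HYOU1 with its chromosome row. HYOU1 was -0.73 with the mean of its rows, -0.11 without both arrays of strong small RNA signal, -1.23 with the chromosome row, and -0.21 to 0.39 with 1 array left out. DNAJB9 was 0.15 after quantile normalization, 0.12 under cyclic loess, 0.036 with the covariate, and -0.18 to 0.078 with 1 array left out. STT3A was -0.023 with the covariate and -0.052 to 0.31 with 1 array left out. With 1 array left out SSR2 ran from -0.018 to 0.37, EDEM2 from -0.0018 to 0.29, RPN2 from -0.39 to 0.024, P4HB from -0.52 to 0.041 and SSR3 from -0.29 to 0.012. The causes were not tested.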

Other observations

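Of the 5 plasma cell markers 1 passed. JCHAIN, the joining chain of polymeric antibodies, which is folded in the ER, gave 15.42, 16.14 and 15.55 on ruxolitinib arrays and 18.09, 18.57 and 18.37 on DMSO arrays. It was lower on all 3 and fell by 2.64 ± 0.22 on the log2 scale (adjusted p = 0.000192, limma). The other markers did not pass, and most had changes of the opposite sign. IRF4, a transcription factor of the B lineage, gave 12.26, 12.62 and 12.18 with ruxolitinib and 12.16, 11.48 and 11.87 in DMSO, without overlap, a change of 0.52 ± 0.22 (adjusted p = 0.456, limma). The changes were 0.24 for SDC1, 0.23 for TNFRSF17 and -0.25 for PRDM1. Whether JCHAIN is related to the chaperone genes was not tested.

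A few companion genes, chosen after their values were seen, ran against the downward median. STT3B, the catalytic subunit of the second oligosaccharyltransferase, averaged 18.14 ± 0.21 with ruxolitinib and 17.51 ± 0.38 in DMSO (SD, n = 3 each), without overlap. UBE2J1, a ubiquitin-conjugating enzyme of the ER membrane, averaged 14.04 ± 0.04 with ruxolitinib and 13.49 ± 0.10 in DMSO. Their changes of 0.62 ± 0.22 and 0.55 ± 0.17 did not pass (adjusted p = 0.326 and 0.212, limma).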
